A study of Mus musculus with 9 samples.

Results

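The mitochondrial ribosomal proteins were chosen by symbol, as the genes named Mrpl or Mrps followed by a digit, and 78 of the 16921 genes in the RiboSeq table met this rule. Of these, 48 carried a large subunit symbol (Mrpl) and 30 a small subunit symbol (Mrps). RiboSeq counts the mRNA fragments that translating ribosomes protect from nuclease, here in immortalized bone marrow-derived mouse macrophages that lack tristetraprolin (TTP, gene symbol Zfp36). TTP is an RNA-binding protein that brings mRNAs with AU-rich elements to decay, and phosphorylation by the kinase MK2 restrains it. The 3 groups expressed GFP alone, GFP-TTP, or GFP-TTP-AA, in which alanines replace the MK2 phosphorylation sites, from doxycycline-inducible vectors. All cells carried the immortalizing oncogenes hcmyc and hRasG12V and received doxycycline (1 µg/ml) for 6 h and LPS (1 µg/ml), a bacterial activator of macrophages, for 1 h. Each group was 1 transduced cell line with 3 libraries, so that a difference between groups cannot be told apart from a difference between lines. The libraries are numbered 1 to 3 in each group, and nothing states that they came from separate cultures.

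Mitochondria keep a ribosome of their own, which translates the few mRNAs of mitochondrial DNA into core subunits of the respiratory chain and the ATP synthase. Its RNAs are made in the organelle, whereas its proteins are encoded in the nucleus, made by cytosolic ribosomes and imported. The small subunit decodes the mRNA and the large subunit forms the peptide bond. Many of the proteins descend from bacterial ribosomal proteins and others were gained in the mitochondrial lineage. The symbols do not always give the place, since Mrps18a and Mrps30 sit in the large subunit. The footprints counted here are those of cytosolic ribosomes on the nuclear mRNAs, and they report how much of each protein was being made. Less of an mRNA and fewer ribosomes on each mRNA cannot be told apart in these values, and neither can fewer cells and less RNA per cell. The mRNAs and rRNAs of mitochondrial DNA were not analysed here.

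The deposited per-library values are not observed counts. They are DESeq2 model fits by the authors: the sum of a gene's group step, its replicate-number step and a constant of the library gave each log2 value to within a residual SD below 1e-14, against an SD of 4.79 before. The step between replicates is therefore the same in every group, and the experimental error lies only in the standard errors (SE) of the deposited comparison tables. Values are given below as fitted values divided by the size factor of the library, and a level is their geometric mean over the 3 libraries of a group. The library totals of the fitted values ran from 2570292 to 12804501, and the size factors from 0.412 to 2.14. Zfp36 had a level of 459 in GFP, 926 under GFP-TTP and 1536 under GFP-TTP-AA, with constructs that carry only the coding sequence. Of 7 macrophage markers in the table, Lyz2, Csf1r, Cd68, Emr1 and Itgam had levels above all members, Fcgr1 was between 67.1 and 129 and Mertk was near 5. The 8 markers of other lineages in the table, of 15 listed, summed to at most 6.02 per group.

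Promoter sequences are shown first, and no relation of their letters to the levels or differences was tested. Of the members, 67 had a promoter in the RefSeq table (GRCm38.p6), 73 promoters in all, each spanning 250 bases before to 50 bases after a start site. The letters CCGGAAG, the core recognized by ETS factors such as GABP, were found on either strand in 32.9% of the members' promoters, in 15.8% of the 13584 promoters of genes in the RiboSeq table and in 8.86% of all 32851 promoters. The NRF1 core GCGCATGC occurred in 8 of the members' promoters (11%), against 4.82% for genes in the RiboSeq table and 2.71% of all. The YY1 letters AAGATGGCG were also in 8, against 2.66% and 1.4%. The TATA letters TATAAA were in 6.85% of the members' promoters, near the 7.84% of genes in the RiboSeq table, and in 13.6% of all. ETS letters were in 40.7% of the 27 Mrps promoters and 28.3% of the 46 Mrpl promoters, a difference that was not tested. The genes in the RiboSeq table include 4646 with a mean fitted value below 1, far under any member tested below. Shares for genes of higher values alone were not computed. These are letter matches only, and binding was not measured. Below are 30-base windows of the members that passed the test in any comparison and have such letters, which stand in capitals; Mrpl54 also passed and is named only.

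Mrpl16, TATA letters, GRCm38.p6, plus strand, chr19:11770336-11770365: cgtcaggactcTATAAAaggtgggacagga
Mrpl36, YY1 letters on the opposite strand, plus strand shown, chr13:73330967-73330996: acgtgaccttaCGCCATCTTtcttcctggc
Mrpl52, first ETS match, letters on the opposite strand, plus strand shown, chr14:54426851-54426880: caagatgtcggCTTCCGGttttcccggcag
Mrpl52, second ETS match, letters on the opposite strand, plus strand shown, chr14:54426900-54426929: ggccacgcccaCTTCCGGttcccttgctcc

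TTP binds AU-rich stretches of 3′ ends, for which TATTTAT is the core in DNA letters. In the 3′ ends annotated by GENCODE vM21, 11 of 75 members (14.7%) held TATTTAT, against 27.5% of the 9936 kept genes with an annotated 3′ end. The members' 3′ ends were shorter, with a median of 354 bases against 954.5. The windows below show the letters in capitals for the member of these with the shortest 3′ end, and for both members in which matches overlap.

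Mrpl24, 3′ end on chromosome 3: aaattacatggTATTTATagaaacagaa
Mrps10, 3′ end on chromosome 17, first of the overlapping matches: tattttgttctTATTTATttatccatcca
Mrps30, 3′ end on chromosome 13, first of the overlapping matches: cttgaaattctTATTTATttatttttttt

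Of the 78 members, 76 had a mean value of at least 10 and entered the tests, 29 Mrps and 47 Mrpl. The rows Mrpl23-ps1 and Mrps36-ps1, named as pseudogenes, had means of 0.336 and 0.240 and were not tested. The least abundant member tested was Mrps33 with a mean of 77.7, and the most abundant Mrps14 with 1076, so that none passed the filter through 1 group alone. All members lay on 17 chromosomes of the nuclear genome. As a share of all fitted values, the 76 members made up 0.522% to 0.577% in the GFP libraries, 0.545% to 0.596% in GFP-TTP and 0.536% to 0.591% in GFP-TTP-AA. Within each replicate number GFP-TTP was the highest and GFP the lowest, and the groups overlapped through the step between replicates, which the fit makes the same in all groups. Cytosolic ribosomal proteins took 3.67% to 4.68% of the same libraries.

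Per kb of coding length, the median level of the 76 members was 681 in GFP, 658 under GFP-TTP and 698 under GFP-TTP-AA. Over all groups the median member stood at 695 per kb, that of all kept genes at 146 and that of the cytosolic ribosomal proteins at 4432. The Mrpl had a median of 699 per kb, with quartiles of 490.2 and 857, and the Mrps of 537, with quartiles of 386 and 1073. The ranges of both subunits overlapped over most of their length. The large subunit was above the small by 1.30 times in this median; without division by length the ratio was 0.895. Coding lengths were alike, with a median of 576 bases for Mrpl and 588 for Mrps.

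The highest levels per kb were those of Mrpl33, a very short protein of the large subunit, with 3841 over all groups. It was followed by Mrps17 (2780.1) and Mrps14 (2766), both of bacterial descent and in the small subunit, and by Mrpl13 (1695). Mrps18c, the paralog that takes the place of the bacterial S18 protein, came next with 1522. Its paralog Mrps18a, which is placed in the large subunit, reached 1245, and Mrps18b, a small subunit protein, was lower. The lowest were Mrps31 with 176 per kb, Mrps5 with 212, Mrps12 with 223, Mrpl23 with 237 and Mrpl37 with 243. Mrps12 forms part of the decoding centre, where codon and anticodon meet. Per kb, Mrpl33 was thus 21.9 times as high as Mrps31 although both belong to the same particle. Much of this ratio comes from the division by length, as they have 195 and 1152 coding bases. Without that division their mean values were 752 and 204. Even the lowest member exceeded 54.9% of the kept genes per kb.

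**Figure D1:**
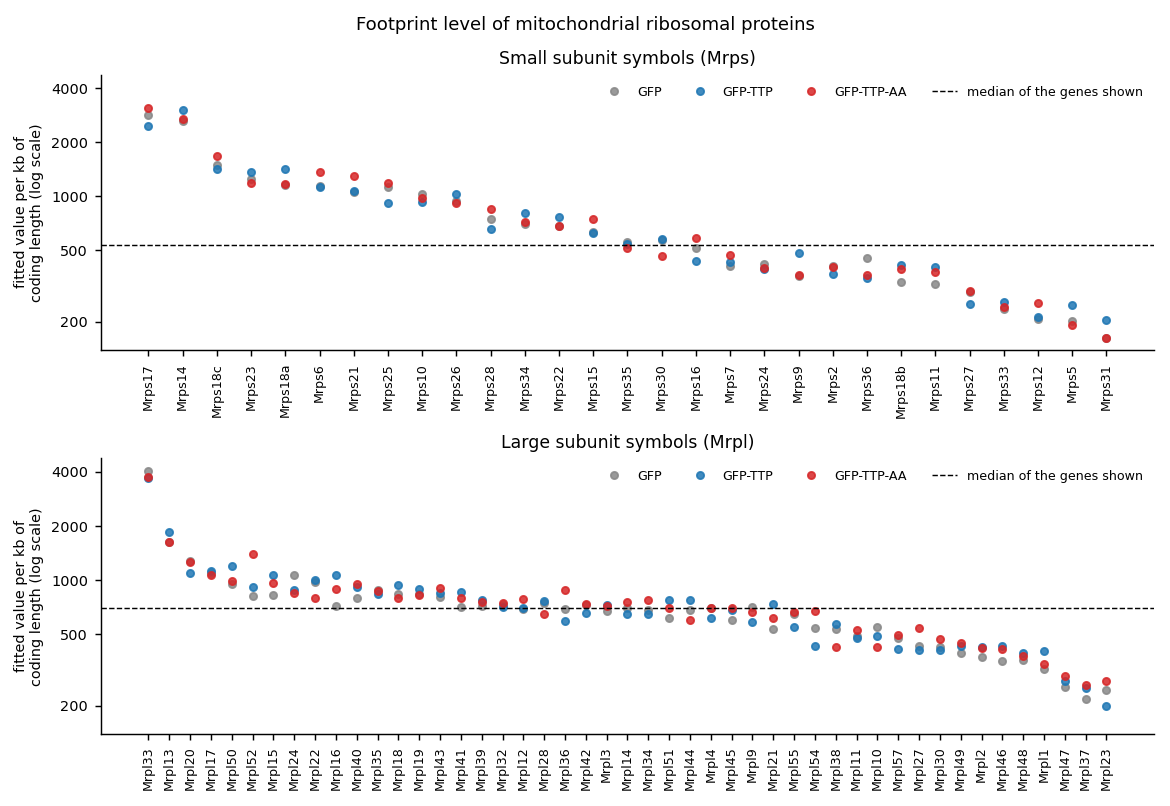
Level per kb of coding length (log axis) of the 29 Mrps (top) and 47 Mrpl (bottom), ordered by their mean over the groups, with a point for the level in GFP, GFP-TTP and GFP-TTP-AA. Dashed lines are the medians, 537 for Mrps and 699 for Mrpl; for most genes the 3 points lie closer to each other than to the extremes of the order.

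Expression of wild-type TTP was compared with GFP to ask whether TTP altered the footprints on these genes. In GFP-TTP the footprints on the members as a set were near their level in GFP, and 1 member rose. Of the 76 members, 1 was higher and 0 were lower at an adjusted p under 0.05, by a Wald test on the fitted difference and the deposited DESeq2 SE. Over all 9938 genes tested, 0.805% were higher and 1.29% lower. At an unadjusted p under 0.05 there were 8 members (10.5%), where 11.3% of all genes passed. The median log2 difference was 0.04 over the members, 0.03 for Mrps and 0.07 for Mrpl, beside 0.00 for all genes, and 44 members lay above 0.

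The member that rose was Mrpl16, a core protein of the large subunit from bacteria (chromosome 19, 11770391 to 11774960, plus strand, GRCm38). Its values were 497, 579.9 and 546 in the GFP libraries, 739.5, 862 and 812 in GFP-TTP, and 621, 724 and 682 in GFP-TTP-AA. All GFP-TTP values were above all GFP values, and the GFP-TTP-AA level lay between those of both. In fitted values each library of a group repeats the same group step, so that whether groups overlap, for this gene and those below, says nothing of the spread between libraries. The log2 difference of GFP-TTP from GFP was 0.57 ± 0.14 (SE, n = 3 per group), 1.49-fold, with an adjusted DESeq2-based Wald p of 0.00499. Chromosome 19 as a whole was shifted in this comparison: the median of its kept genes was 0.17, and less this median Mrpl16 was at 0.40 with an adjusted p of 0.166. Of the 5 members on that chromosome, Mrpl21 had the next difference, 0.45, and did not pass.

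Next to Mrpl16 and Mrpl21 the highest differences were 0.42 in Mrps9, 0.36 in Mrpl15 and 0.34 in Mrpl50. The lowest were −0.37 in Mrps36, −0.33 in Mrpl54, −0.30 in Mrps25 and −0.29 in both Mrpl23 and Mrpl9. None of these 9 genes, Mrpl21 included, passed, with adjusted p of 0.140 or more. Mrps36 is known as a subunit of the oxoglutarate dehydrogenase complex, and it was counted among the Mrps by its symbol. Each of the 76 members had a 95% interval that stayed within 1 log2 unit of 0, and in 41 of them within 0.5. The intervals here and below surround differences that the authors' model shrinks toward 0. They may therefore lie too close to 0 for the unshrunken differences.

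GFP-TTP-AA was compared with GFP to see the effect of the form that MK2 cannot restrain. Again 1 member rose and 0 fell, of 76, where 1.75% of 10103 genes were higher and 1.27% lower. There were 7 members (9.21%) at an unadjusted p under 0.05, against 14.2% of all genes. The median log2 difference of the members was 0.07, with 0.04 for Mrps and 0.10 for Mrpl, beside 0.01 for all genes. Of the members 68.4% lay above 0, compared with 50.9% of all genes.

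The member that rose here was Mrpl52, a short protein of the large subunit that has no bacterial counterpart (chromosome 14, 54426909 to 54429756, plus strand). It is the gene with a pair of ETS matches shown above. Its values were 284, 260.0 and 357 in GFP, 315, 289 and 397 in GFP-TTP, and 482, 442 and 607 in GFP-TTP-AA. The GFP-TTP-AA libraries lay above all others. The log2 difference from GFP was 0.77 ± 0.18 (SE, n = 3 per group), 1.70-fold, with an adjusted DESeq2-based Wald p of 0.00266. It was 0.80 less the median of chromosome 14, with an adjusted p of 0.00155.

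After Mrpl52 came Mrpl36 (0.36), Mrpl27 (0.34), Mrpl16 (0.32) and Mrpl54 (0.32). At the other end were Mrpl10 (−0.37), Mrpl38 (−0.33), Mrpl24 (−0.32), Mrps36 (−0.32) and Mrpl22 (−0.29). None of these 9 genes passed the test, with adjusted p of 0.211 or more. The 95% interval stayed within 1 log2 unit of 0 in 75 of the 76 members, all but Mrpl52. Mrpl10 anchors the stalk of the large subunit, to which translation factors dock, and its level was 430.2 in GFP, 384 under GFP-TTP and 333 under GFP-TTP-AA. The stalk protein Mrpl12 went from 417 in GFP to 423 and 473, a log2 difference of 0.18 ± 0.16 (SE) between GFP-TTP-AA and GFP.

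GFP-TTP-AA was compared with GFP-TTP to ask what the phosphorylation sites changed. Footprints on Zfp36 were also higher in GFP-TTP-AA, by 0.73 ± 0.25 (SE), with an adjusted DESeq2-based Wald p of 0.0386. By the footprints, the sites and the amount of construct made therefore cannot be told apart in this comparison. The paper reports from western blots that both proteins reached similar levels. The GFP line, which has no TTP construct, also had a Zfp36 level of 459. Footprints on Zfp36 therefore need not come from the construct alone. This comparison had the most calls over all genes, 5.66% of 10103 higher and 4.58% lower. Of the 76 members, 3 were higher and 0 lower, and 14 (18.4%) had an unadjusted p under 0.05 against 22.1% of all genes. The members that rose were Mrpl54, Mrpl52 and Mrpl36, all in the large subunit. The median log2 difference was 0.02 over the members, 0.01 for Mrps, 0.02 for Mrpl and 0.01 for all genes. The comparisons share libraries, so that their calls are not independent.

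Mrpl54, a large subunit protein without a bacterial counterpart (chromosome 10, 81264713 to 81266934, minus strand), had values of 199, 179 and 291 in GFP, 158, 142 and 231 in GFP-TTP, and 248, 223 and 363 in GFP-TTP-AA. Replicate 3 was the highest of each group, and through it the groups overlapped. The log2 difference of GFP-TTP-AA from GFP-TTP was 0.65 ± 0.17 (SE, n = 3 per group), 1.57-fold, with an adjusted DESeq2-based Wald p of 0.00324. The kept genes of chromosome 10 had a median of 0.17 in this comparison, and less that median Mrpl54 was at 0.48 with an adjusted p of 0.0536.

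Mrpl52 rose by 0.61 ± 0.18 (SE, n = 3 per group) over GFP-TTP, 1.53-fold, with an adjusted DESeq2-based Wald p of 0.0122. Less the median of all kept genes of its class of coding length, up to 450 bases, it no longer passed, with an adjusted p of 0.0948. Mrpl36, a small zinc-binding protein of bacterial descent in the large subunit (chromosome 13, 73328513 to 73332178, plus strand), had values of 229, 203 and 199.7 in GFP, 198, 176 and 173 in GFP-TTP, and 294, 261 and 256 in GFP-TTP-AA. Its GFP-TTP-AA libraries were above all libraries of the other groups. The log2 difference from GFP-TTP was 0.57 ± 0.19 (SE, n = 3 per group), 1.48-fold, with an adjusted DESeq2-based Wald p of 0.0287. Less the median of the same class its adjusted p was 0.163.

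**Figure D2:**
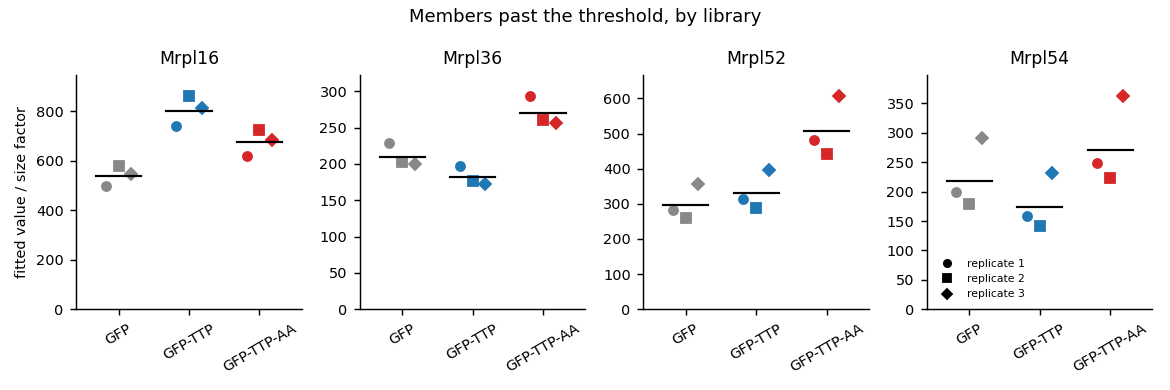
Fitted value divided by the size factor in each library of the 4 members that passed the test, with a symbol per replicate number and a line at the level of the group. Mrpl16 was highest in GFP-TTP, and Mrpl36, Mrpl52 and Mrpl54 in GFP-TTP-AA; the step between replicates is equal in all groups because the values are fitted.

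Below these 3 genes came Mrpl23 (0.46) and Mrps16 (0.42), which did not pass. The lowest differences were −0.41 ± 0.15 (SE) in Mrpl38, −0.40 in Mrps9, −0.37 in Mrpl44, −0.37 in Mrps5 and −0.34 in Mrpl22. Mrpl38 had an adjusted p of 0.0526 and a level of 645 under GFP-TTP and 484 under GFP-TTP-AA. It passed once the differences were centred on the median of all genes, which made 3 members higher and 1 lower. Mrpl44, a protein related to RNase III, had 778 and 599.8. Mrps30, which is named for the small subunit and sits in the large, was at −0.32 ± 0.14 (SE) with an adjusted p of 0.151. Mrps18a, Mrps18b and Mrps18c were at −0.28, −0.08 and 0.24, and Mrps12 at 0.27, none of which passed. In this comparison 37 of the 76 members had a 95% interval within 0.5 of 0.

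**Figure D3:**
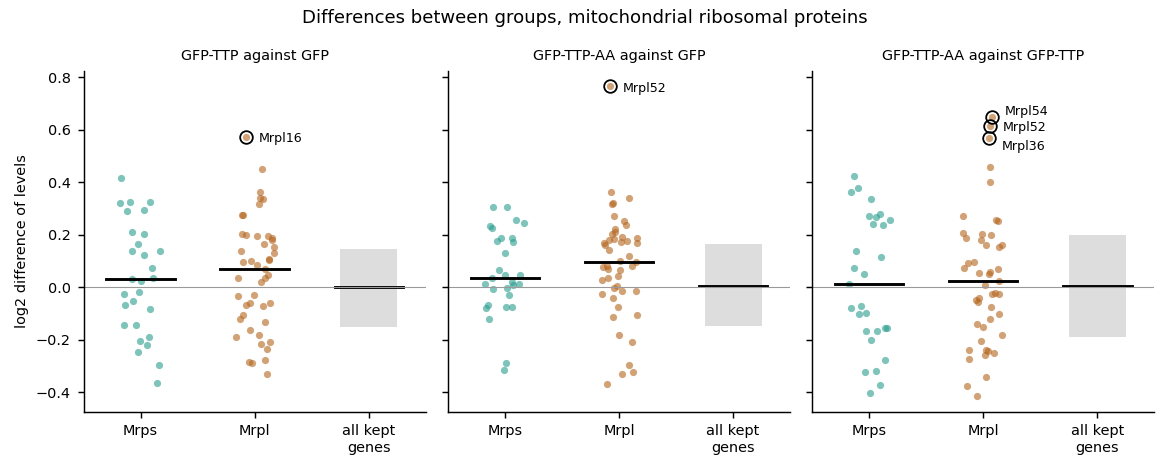
Log2 difference of each of the 29 Mrps and 47 Mrpl in the 3 comparisons, with black lines at the medians, circles around members past the adjusted p of 0.05, and, for all kept genes, a bar from the lower to the upper quartile. Both subunits spread around 0 in each comparison, and the circled genes are Mrpl16, Mrpl52, Mrpl54 and Mrpl36.

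The small and large subunits were set side by side in each comparison. The median of Mrpl less that of Mrps was 0.04 in GFP-TTP against GFP, 0.06 in GFP-TTP-AA against GFP and 0.01 in GFP-TTP-AA against GFP-TTP. With Mrps18a and Mrps30 counted in the large subunit, and Mrps36 still in the small, the last of them turned to −0.04. Past the threshold were 0 of 29 Mrps in each comparison. Of 47 Mrpl, 1, 1 and 3 passed in the order of comparisons above, which were 4 genes in all. Of all genes tested, 208 of 9938, 305 of 10103 and 1035 of 10103 passed, in the same order of comparisons. As shares of all genes, 0.805%, 1.75% and 5.66% were higher, and 1.29%, 1.27% and 4.58% lower. The share of all genes called in at least 1 comparison was not computed. Whether the subunits differ in calls was not tested. At an unadjusted p under 0.05 in the Wald test there were 2, 1 and 6 Mrps and 6, 6 and 8 Mrpl in the order of the comparisons above, where 11.3%, 14.2% and 22.1% of all genes passed. The spread of log2 differences in GFP-TTP-AA against GFP-TTP was an SD of 0.25 for Mrps and 0.25 for Mrpl, beside 0.35 for all genes. By descent, the 46 proteins of bacterial type had a median of 0.09 in that comparison and the 30 counted as gained in mitochondria −0.06. In GFP-TTP against GFP these were −0.03 and 0.14. Mrps36 was counted among the 30. No test was made of these medians, as members of a complex are not replicates.

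Members with short coding sequences had higher differences in GFP-TTP-AA against GFP-TTP than members with long ones. The 23 members of up to 450 bases had a median of 0.25, and 19 of them lay above 0. The 38 members over 450 and up to 900 bases had a median of −0.04, and the 15 members over 900 bases one of −0.15, with 3 above 0. The same order was present over all kept genes, with medians of 0.16, 0.08 and −0.03. Across the 76 members the log2 of coding length and the difference had a Pearson r of −0.51 and a Spearman rho of −0.52, and r was −0.52 within Mrps and −0.51 within Mrpl. Over 9954 kept genes r was −0.23 and rho −0.26. These are correlations across genes of the same libraries, which are not independent, and longer members also had higher values, with a rho of 0.34 between length and mean value.

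In GFP-TTP against GFP the order of the members' classes was the opposite, with medians of −0.11, 0.07 and 0.19 from short to long. Over all kept genes the medians were −0.03, −0.04 and 0.02. GFP-TTP enters this comparison and GFP-TTP-AA against GFP-TTP with opposite sign, so that the reversed order is not an independent result. In GFP-TTP-AA against GFP the members' medians were 0.17, 0.06 and 0.01, and over all kept genes 0.12, 0.03 and −0.01. Mrpl36, Mrpl52 and Mrpl54, the genes that passed in GFP-TTP-AA against GFP-TTP, encode 102, 121 and 135 residues and lie in the short class. When the median of all kept genes of the same class was subtracted, Mrpl54 was at 0.49 with an adjusted p of 0.0411 and still passed, and Mrpl52 and Mrpl36 were at 0.46 and 0.41 and did not. Mrpl52 still passed against GFP, at 0.65 with an adjusted p of 0.0194.

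**Figure D4:**
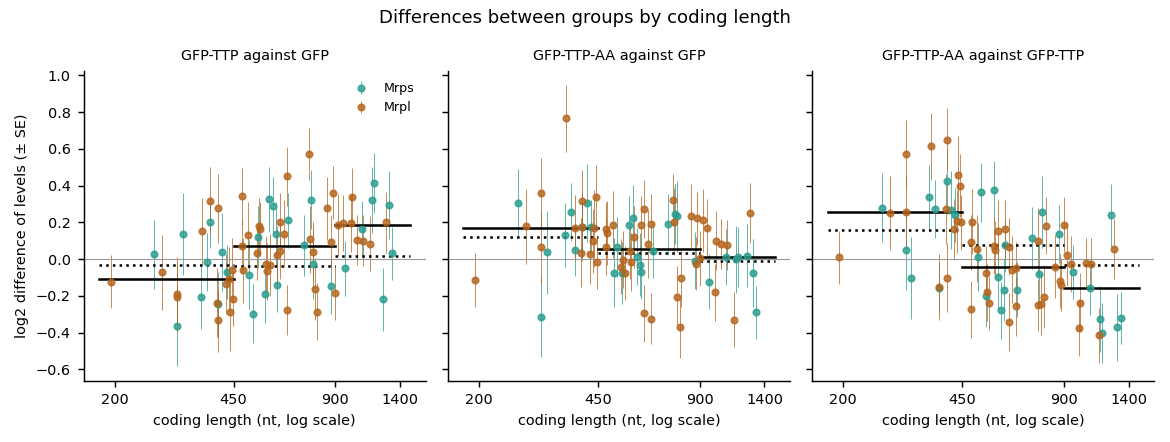
Log2 difference of each member (± SE) by coding length (log axis) in the 3 comparisons, for Mrps and Mrpl. Solid lines are the medians of the members and dotted lines those of all kept genes in the classes of up to 450, over 450 to 900 and over 900 bases; in GFP-TTP-AA against GFP-TTP the members' medians were 0.25, −0.04 and −0.15.

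Of the 4 members that passed in any comparison, 0 held TATTTAT in the 3′ end, against 14.7% of the members with an annotated 3′ end. With so few calls, this count says nothing about the letters. The 11 members with the letters had a median log2 difference of 0.03 in GFP-TTP against GFP, −0.02 in GFP-TTP-AA against GFP and −0.05 in GFP-TTP-AA against GFP-TTP. The 64 members without it had medians of 0.07, 0.10 and 0.05. Over all kept genes the medians with the letters were −0.01, −0.06 and −0.04, and without them 0.01, 0.03 and 0.02. Mrpl24, whose window is shown above, had a level of 688 in GFP and 549.7 in GFP-TTP-AA, an adjusted p of 0.211. Mrps30 and Mrps10 had differences of −0.32 and 0.07 in GFP-TTP-AA against GFP-TTP.

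Some proteins of the mitochondrial ribosome have other symbols. The 6 in the table, Dap3, Ptcd3, Chchd1, Aurkaip1, Gadd45gip1 and Ict1, had 0 past the threshold in every comparison, and 0, 2 and 1 at an unadjusted p under 0.05. The lowest was Ptcd3, a pentatricopeptide repeat protein of the small subunit, at −0.40 in GFP-TTP-AA against GFP-TTP with an adjusted p of 0.0557. Dap3, a GTP-binding small subunit protein, was at −0.07 there. Their median level per kb was 617.

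The machinery that works with the ribosome had lower medians in GFP-TTP-AA against GFP-TTP. Of all genes 4.58% were called lower there, and of the 7280 kept genes over 900 bases 418 were. The 17 mitochondrial aminoacyl-tRNA synthetases, which charge the tRNAs, had a median of −0.26, and 2 of them fell. Iars2, for isoleucine, had a level of 705 under GFP-TTP and 416 under GFP-TTP-AA, a log2 difference of −0.76 with an adjusted p of 0.00418. The 15 translation factors and mRNA-binding proteins had a median of −0.28, and 2 fell.

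Of these, Guf1, a mitochondrial elongation factor, was at −0.70 with an adjusted p of 0.00275, and Lrpprc, which stabilizes mitochondrial mRNAs, at −0.50 with an adjusted p of 0.00584. The 19 proteins of ribosome assembly and rRNA modification had a median of −0.17, with 1 lower, Ngrn (−0.66, adjusted p of 0.0361). On these 3 lists 0 genes passed in GFP-TTP against GFP, with 3 at an unadjusted p under 0.05, and 0 in GFP-TTP-AA against GFP, with 4. Of all genes 0.805% were higher and 1.29% lower in GFP-TTP against GFP, and 11.3% had an unadjusted p under 0.05. In GFP-TTP-AA against GFP these shares were 1.75%, 1.27% and 14.2%. Coding lengths on the 3 lists were longer than those of the members, with medians of 1656, 1299 and 1131 bases against 582. The class medians by length are given above. The 80 cytosolic ribosomal proteins tested had a median of −0.02 in GFP-TTP-AA against GFP-TTP, with 2 higher and 2 lower.

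**Figure D5:**
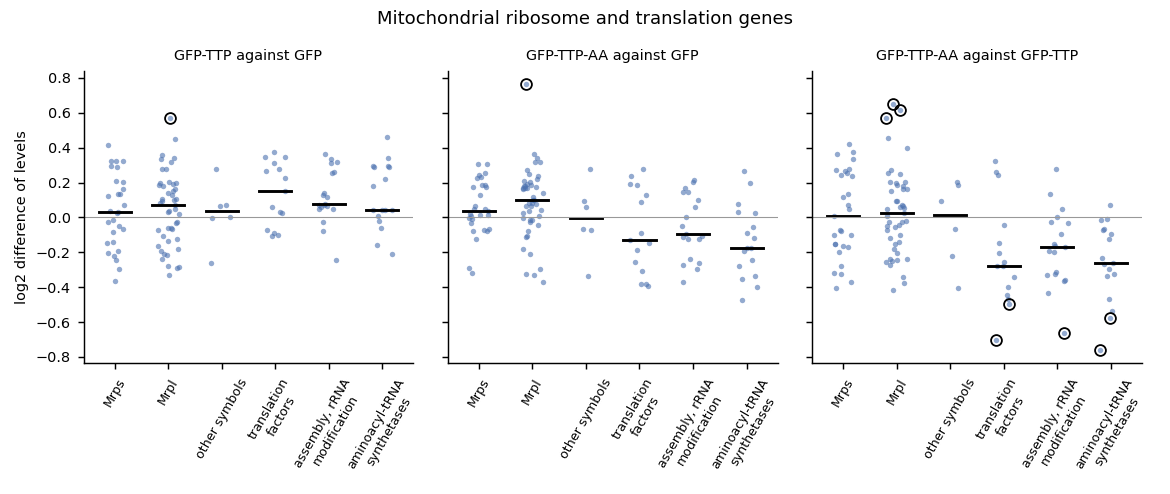
Log2 difference of each gene in the 3 comparisons for Mrps, Mrpl, mitoribosome proteins with other symbols, translation factors, assembly and rRNA modification proteins, and aminoacyl-tRNA synthetases, with lines at the medians and circles at an adjusted p under 0.05. In GFP-TTP-AA against GFP-TTP the medians of both subunits were 0.01 and 0.02 and those of the last 3 lists −0.28, −0.17 and −0.26.

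Between replicates the members also moved, in steps that are the same in every group. From replicate 1 to 2 the median log2 step of the members was −0.03, with Mrpl11 the lowest at −0.61 and Mrpl51 the highest at 0.69. From replicate 1 to 3 it was 0.06, from −0.36 in Mrpl41 to 0.88 in Mrps15. The step of Mrps15 was larger than any difference of a member between groups. Of the 6 macrophage markers tested, 3 differed in GFP-TTP against GFP. Emr1 was at −0.68, Fcgr1 at −0.95 and Lyz2 at −0.48, and all 3 passed the test. They also passed in the other direction in GFP-TTP-AA against GFP-TTP, at 1.22, 0.72 and 0.64. In GFP-TTP-AA against GFP, Emr1 was at 0.54 and passed, with an adjusted DESeq2-based Wald p of 0.0287. Fcgr1 (−0.23) and Lyz2 (0.16) did not pass there. In GFP-TTP against GFP and GFP-TTP-AA against GFP-TTP, Cd68 (−0.12 and 0.19), Csf1r (−0.17 and 0.34) and Itgam (0.10 and 0.00) did not pass. Nor did Cd68, Csf1r or Itgam pass in GFP-TTP-AA against GFP. The part of cell state in the members' differences was not tested.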

How the data were processed

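RiboSeq libraries of 3 groups with 3 replicates each were grouped by the labels. Per the labels and methods, the authors trimmed reads (Trim Galore), mapped them to mm10/GRCm38 with TopHat2 (2.0.12 in the processing notes, another version in the methods) with up to 2 alignments per read, counted them with HTSeq and fitted the counts with DESeq2 (1.6.3), with terms for library date and condition. Footprints on close copies, such as Mrpl23 and Mrpl23-ps1, may be shared. The authors' deposited per-library table is a signal, the fitted mean times the size factor, in 16932 lines for 16921 identifiers. The authors' deposited comparison tables hold a mean, a log2 fold change, its SE, a statistic and p-values, of which only the SE (log2 scale) was used. The authors' model shrinks differences toward 0. Reads per library are not given in the sources used here, so that depth enters only through the SE, between 0.137 and 0.224 for members.

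Size factors were recovered from genes with a mean below 1, whose fitted differences are close to 0. The log2 difference of group levels was divided by the authors' DESeq2 SE (Wald test, two-sided, normal) and adjusted by Benjamini-Hochberg over all genes with a mean scaled value of at least 10 (10103 genes, of which 9938 have an SE in GFP-TTP against GFP), with a threshold of 0.05. The test was tried on simulated data. Coding length was that of the longest curated RefSeq coding sequence without the stop codon (76 of 76 members). Positions and 3′ ends came from GENCODE vM21 on GRCm38 (75 of 76). Python 3.11.15, pandas 2.3.3 and scipy 1.17.1 were used. Members and lists were chosen with earlier results of these data known. Genes named were members past the threshold, the 5 highest and 5 lowest differences and levels per kb, members and partners of known role, and of other lists only genes past the threshold. Length classes were chosen after the values were seen. Other filters, centrings and thresholds were tried as alternatives. The values of 1 called gene outside the members are not reported here.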

Additional observations from a re-analysis of the deposited data

How the results depend on the processing

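The tests reported already carry the replicate number as a block, since their SE comes from the authors' model with library date and condition. No paired analysis was possible beyond this one, because the deposited values hold no spread between replicates, and neither a fit without the block nor one that leaves out a library (leave-one-out) could be run. The median log2 differences of the members, of Mrps and of Mrpl moved by at most 0.08 with any filter, centring or pseudocount tried. In GFP-TTP-AA against GFP-TTP these medians changed sign less the median of each class of coding length, to −0.02, −0.07 and −0.01, and that of Mrpl also less the chromosome medians, to −0.0021. With no filter, a mean of at least 50, a mean of unscaled values of at least 10 (chosen after seeing the data), or adjustment over the 3 comparisons together, the counts of members called were 1, 1 and 3 as reported, with the same genes. Centred on the median of all genes, the same genes passed and Mrpl38, lower, was added in GFP-TTP-AA against GFP-TTP, which made 4. Less the median of each chromosome, 0 members passed in GFP-TTP against GFP, as Mrpl16 did not, and in GFP-TTP-AA against GFP-TTP Mrpl27 passed in the place of Mrpl54. Less the median of each class of coding length (chosen after seeing the data), 1 member, Mrpl54, passed in GFP-TTP-AA against GFP-TTP. At an adjusted p of 0.1 there were 5, with Mrpl38 and Mrps9 lower. The median of Mrpl less that of Mrps was −0.03 in GFP-TTP-AA against GFP-TTP and −0.0045 in GFP-TTP against GFP less the chromosome medians. The authors' shrinkage and the SE of 0.137 or more limit what could be called: the smallest difference of a member that passed was 0.57, and nothing follows for smaller ones.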

Other observations

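Chromosomes differed in their medians, and members followed them in part. On chromosome 3 the kept genes had a median log2 difference of −0.18 in GFP-TTP against GFP and the 5 members there −0.19. On chromosome 10 the kept genes were at −0.12 in that comparison and at 0.17 in GFP-TTP-AA against GFP-TTP, and its 2 members had medians of −0.23 and 0.41. On chromosome 11, which holds 10 members, more than any other chromosome, the kept genes were at −0.10 in GFP-TTP-AA against GFP-TTP and the members at 0.02.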
